A study of Homo sapiens with 4 samples.

Results

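Expression of 9 leukocyte adhesion genes was followed in Jurkat, a cell line established from a human T cell leukaemia. The genes were the integrin subunits ITGAL, ITGB2, ITGA4, ITGB1 and ITGB7, the intercellular adhesion molecules ICAM1, ICAM2 and ICAM3, and SELPLG, which encodes the selectin ligand PSGL-1. All probe sets that the platform annotation gives to 1 of these symbols alone were taken, which made 25 of the 54675 probe sets on the array and 9 of 19775 named genes. The cells carried a hairpin RNA against the kinase IKKε (the shIKKE line) or a control construct (the control line), and each line was exposed for 3 h to PMA at 10 ng/ml with ionomycin at 0.5 uM or to solvent. PMA activates protein kinase C and ionomycin raises cell calcium, so that together they bypass the T cell receptor. The groups were therefore stimulated shIKKE cells, solvent shIKKE cells, stimulated control cells and solvent control cells, with 1 array each. The titles alone tell stimulated from solvent samples, since all 4 samples carry 1 wording of the treatment. They call the control construct a vector and the design text calls it a control hairpin. All 4 groups are Jurkat, so nothing here was measured in primary T cells, and the labels do not say how many clones a line holds.

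Integrins are paired receptors of an alpha and a beta subunit. ITGAL and ITGB2 form LFA-1, which binds the ICAMs on other cells. ITGA4 pairs with ITGB1 to form VLA-4, a receptor of VCAM1 and fibronectin, and with ITGB7 to form the gut homing receptor of MADCAM1. Signals from the T cell receptor switch these integrins from a resting to a binding shape, so much of their control lies in the protein and not in the amount of messenger RNA. PSGL-1 carries sulfated and fucosylated groups that P-, E- and L-selectin bind while leukocytes roll along vessel walls. ICAM1 is a textbook target of NF-κB in many cell types, whereas ICAM2 and ICAM3 are known as constitutive molecules of resting lymphocytes.

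RefSeq promoter windows were at hand for 5 of the 9 genes, in 8 entries because ICAM3 has several annotated starts and ITGB1 a pair of them. The window of ICAM1 is shown because NF-κB control is what this gene is known for, and that of the first ITGB1 start because the brighter ITGB1 probe sets differed between the lines. Each sequence is the 250 bases before the annotated start in GRCh38.p14, written 5′ to 3′ on the gene's strand. The ICAM1 window is chr19:10270870-10271119 on the plus strand, with the kappaB-like match in capitals, and the ITGB1 window is chr10:32958231-32958480 on the minus strand, with the GC boxes in capitals.
ICAM1: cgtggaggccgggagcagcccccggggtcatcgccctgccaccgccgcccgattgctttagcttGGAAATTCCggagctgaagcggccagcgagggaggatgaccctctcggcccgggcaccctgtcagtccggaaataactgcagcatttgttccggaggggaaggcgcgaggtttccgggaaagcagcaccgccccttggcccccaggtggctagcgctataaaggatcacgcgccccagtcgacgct
ITGB1: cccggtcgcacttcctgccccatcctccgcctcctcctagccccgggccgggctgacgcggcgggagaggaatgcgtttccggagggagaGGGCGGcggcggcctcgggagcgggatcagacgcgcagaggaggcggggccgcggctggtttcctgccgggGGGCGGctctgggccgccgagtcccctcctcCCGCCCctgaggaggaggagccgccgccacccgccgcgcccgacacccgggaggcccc

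Short patterns were searched on both strands of these windows. The kappaB-like pattern GGNNNTTCC was present in 1 of the 8 member windows, that of ICAM1, where GGAAATTCC begins 186 bases before the start and matches on both strands at the same bases. It was present in 17.1% of all 35116 promoter windows of the same length. The GAS-like pattern TTCNNNGAA, a form that STAT factors bind, was present in the same ICAM1 window as TTCCGGGAA, 75 bases before the start, and in 6.57% of all windows. The AP-1 pattern TGANTCA was in 0 of the 8 member windows and in 6.57% of all. The GC box GGGCGG was in 3 of the 8, among them ICAM1 and the first ITGB1 start, and in 42.6% of all. None of these patterns overlapped another in the ICAM1 window. A match is a string of letters and not a measured binding site.

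The values are MAS5 signals, in arbitrary units of brightness on a linear scale. Differences are given as log2 of the signal plus 14.1, which understates the differences of dim probe sets, and at least 2-fold means a log2 difference of at least 1 either way. Probe sets were kept where at least 1 array reached a signal of 56.4, which left 32734 probe sets and 22 of the 25 member probe sets. The nearest to that limit were a dim ITGB1 probe set inside it, with a highest signal of 73.8, and another ITGB1 probe set outside it, with a highest signal of 29.0. By mean level, 14 of the 22 lay in the bright tertile of all kept probe sets (above about 618), 4 in the middle tertile and 4 in the dim tertile (below about 101). With 1 array per group no difference between arrays has a replicate check, and the arrays cannot tell fewer expressing cells from less RNA per cell. Probe sets of 1 gene share the same RNA and are not replicates.

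All 13 T cell marker genes listed were above the limit, with summed signals between 73620 and 81407 over the arrays. Of the other lineages, 3 of 5 B cell, 3 of 7 myeloid, 2 of 5 natural killer, 1 of 4 endothelial and 2 of 4 erythroid or epithelial markers on the array were above it. The endothelial one was PECAM1, also a leukocyte gene. Also above the limit were CD79A, CD79B and BLK (B cell), CSF1R, ITGAM and MPO (myeloid), NCAM1 and NKG7 (natural killer), and HBB and KRT8. Below it were CDH5, VWF, TEK, CD14, LYZ, S100A8, S100A9, MS4A1, PAX5, KLRD1, NCR1, KLRF1, EPCAM and KRT19. The median signal was 69.1 and 49.7 on the stimulated and solvent shIKKE arrays and 59.8 and 48.8 on the stimulated and solvent control arrays. For ACTB, the signal of the 5′ probe set over that of the 3′ one was 0.266 and 0.339 on the stimulated and solvent shIKKE arrays. It was 0.401 and 0.244 on the stimulated and solvent control arrays, so it differed within the pairs compared. Whether this bears on probe sets of 1 gene that disagree was not tested. The targeted gene IKBKE read 248 in stimulated shIKKE cells against 520 in stimulated control cells by 204549_at (log2 -1.03), and 180 against 340 with solvent (log2 -0.87). By 214398_s_at it read 280 against 311 with stimulation (log2 -0.15) and 287 against 218 with solvent (log2 0.38), so the probe sets of the target differed in direction with solvent.

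**Figure D1:**
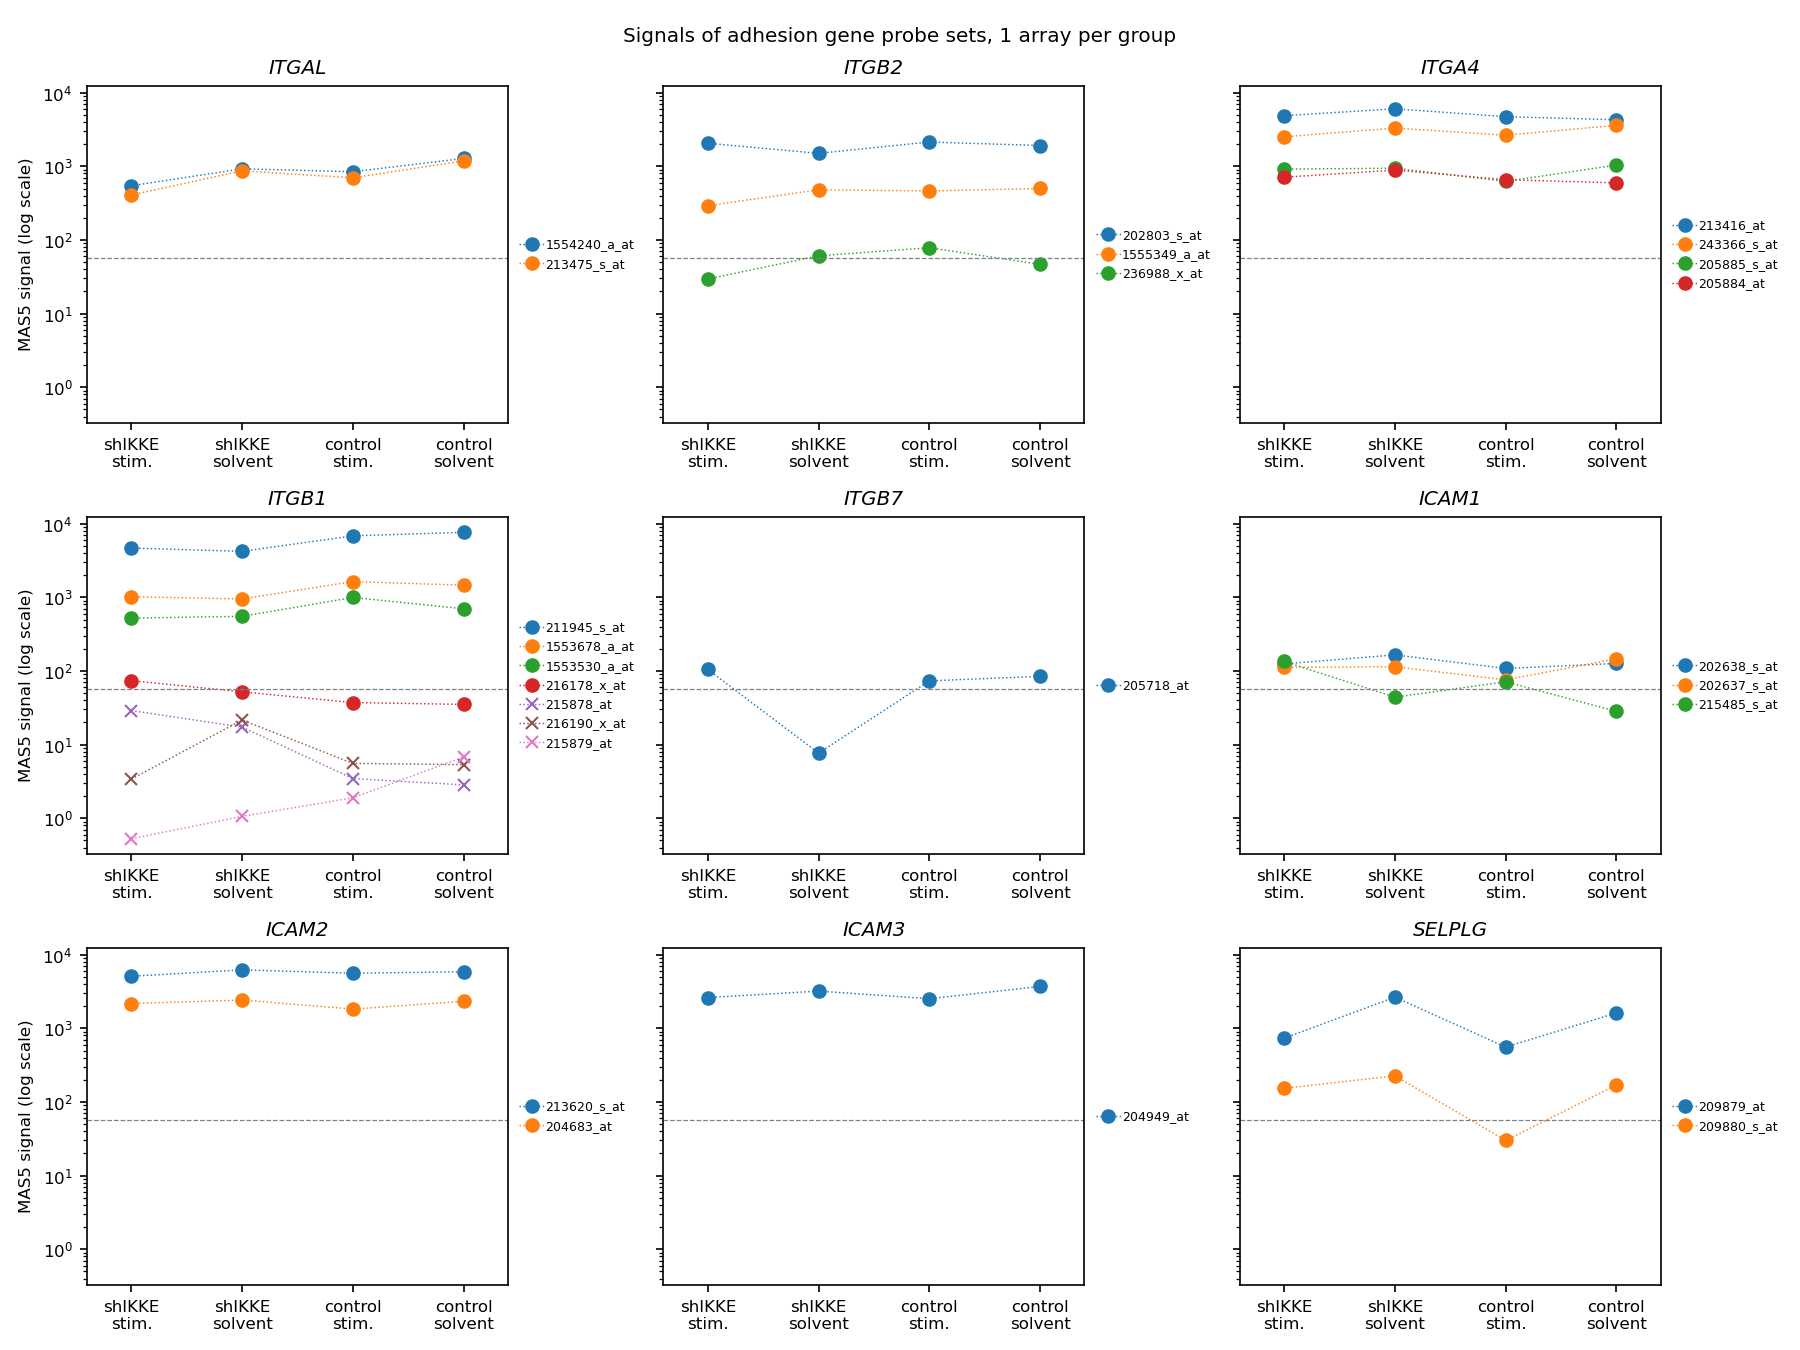
MAS5 signal on a log axis of all 25 probe sets of the 9 genes, 1 panel per gene, on the 4 arrays named along the x axis. Each point is 1 array, dotted lines only join the points of a probe set, crosses are the 3 probe sets below the limit, and the dashed line is that limit at 56.4. The brightest SELPLG probe set is lower on both stimulated arrays and the 3 bright ITGB1 probe sets are lower on both shIKKE arrays.

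The first question was what 3 h of PMA and ionomycin did to these genes in each line. The gene with the largest difference by a bright probe set was SELPLG, whose signal was 3.55-fold lower in the shIKKE line and 2.86-fold lower in the control line. ITGAL was lower in both lines by both of its probe sets, ICAM2 and ICAM3 were lower by less than 1.5-fold, and ICAM1 was not higher by its brighter probe sets. In the shIKKE line, 2 of the 22 member probe sets had a signal 2-fold higher or more and 2 lower, where 15.0% and 3.06% of all kept probe sets were. In the control line 1 was higher and 2 lower, where 13.7% and 6.12% of all were. With arrays scaled to 1 median the members gave 1 higher and 5 lower in the shIKKE line, and 0 higher and 5 lower in the control line. Under that scaling most calls over all probe sets were lower too in both lines, as the shares below show. The median log2 difference of the 22 was -0.29 in the shIKKE line, against 0.08 over all kept probe sets, and -0.17 in the control line, against 0.05. Most members are bright, and the 14 bright ones had a median of -0.29 in the shIKKE line, against -0.11 over all bright probe sets, and -0.25 in the control line, against -0.04. Of all calls, 83.1% were higher in the shIKKE line and 69.2% in the control line. With arrays scaled to 1 median these shares were 42.2% and 45.4%, with quantile normalization 57.8% and 55.2%, and the median of all probe sets was -0.39 in the shIKKE line and -0.24 in the control line under median scaling.

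SELPLG read 737 in stimulated and 2651 in solvent shIKKE cells by 209879_at (log2 -1.83). The same probe set read 557 in stimulated and 1620 in solvent control cells (log2 -1.52). Both stimulated arrays were thus below both solvent arrays. Of the bright tertile of probe sets, 0.953% were at least 2-fold lower with stimulation in shIKKE cells and 2.62% in the control line. The dimmer probe set 209880_s_at read 153 in stimulated and 226 in solvent shIKKE cells (log2 -0.52). It read 29.98 in stimulated and 171 in solvent control cells (log2 -2.07), so its direction was the same in both lines and its size was not. Averaged over the lines, the brighter probe set was lower by 1.67 on the log2 scale (SE 0.27, adjusted p = 0.0905; limma, additive model of line and stimulation). That average did not pass the threshold of 0.05. With the error drawn from probe sets of like level (limma's variance trend), both SELPLG probe sets passed, at adjusted p of 7.74e-06 and 0.0300. The ITGAL probe set 213475_s_at passed too, at 0.0188. In all, 3043 of 32734 probe sets passed with that trend and 0 without it. Over all alternatives the smallest adjusted p of any member for stimulation ranged from 7.74e-06 to 0.221.

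ITGAL, the alpha subunit of LFA-1, read 545 in stimulated and 927 in solvent shIKKE cells by 1554240_a_at (log2 -0.75). It read 845 in stimulated and 1281 in solvent control cells (log2 -0.59). By 213475_s_at the signals were 409 in stimulated and 869 in solvent shIKKE cells (log2 -1.06). In control cells they were 700 stimulated and 1189 with solvent (log2 -0.75). The order of the 4 arrays was the same for both probe sets, with solvent control cells highest and stimulated shIKKE cells lowest. Scaling the arrays to 1 median took 1554240_a_at past 2-fold in the shIKKE line (log2 -1.22) and 213475_s_at past it in the control line (log2 -1.04). The call of 213475_s_at in the shIKKE line was lost with the pseudocount at the median signal (log2 -0.99). The average over the lines was -0.67 and -0.91 on the log2 scale (SE 0.27 each) with adjusted p of 0.305 and 0.205 by limma.

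The beta subunit of LFA-1 did not share that pattern by its brightest probe set. ITGB2 read 2062 in stimulated and 1502 in solvent shIKKE cells by 202803_s_at (log2 0.45). It read 2142 in stimulated and 1919 in solvent control cells (log2 0.16), and both differences turn to -0.02 and -0.13 when arrays are scaled to 1 median. The middle-level probe set 1555349_a_at read 292 in stimulated and 481 in solvent shIKKE cells (log2 -0.69), and 464 in stimulated and 501 in solvent control cells (log2 -0.11). The dim 236988_x_at, whose suffix marks possible cross-hybridisation, read 29.5 in stimulated and 61.0 in solvent shIKKE cells (log2 -0.79), and 78.4 and 46.7 in stimulated and solvent control cells (log2 0.61). After median scaling, stimulated shIKKE cells were below solvent shIKKE cells by more than 2-fold for it and for 1555349_a_at (log2 -1.13 and -1.15). The probe sets of ITGB2 therefore gave no single direction.

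ICAM1, the inducible ligand of LFA-1, had low signals throughout. By 202638_s_at it read 125 in stimulated and 165 in solvent shIKKE cells (log2 -0.37), and 108 in stimulated and 127 in solvent control cells (log2 -0.20). By 202637_s_at it read 112 and 114 in stimulated and solvent shIKKE cells (log2 -0.03), and 75.7 and 147 in stimulated and solvent control cells (log2 -0.84). Both had their lowest signal in stimulated control cells, and median scaling moved 202638_s_at to -0.80 in the shIKKE line and -0.47 in the control line. It moved 202637_s_at to -0.45 in the shIKKE line and past 2-fold in the control line (log2 -1.10), as did quantile normalization (log2 -1.05). The dim probe set 215485_s_at went the other way. It read 135 in stimulated and 44.0 in solvent shIKKE cells (log2 1.36). In control cells it read 71.3 stimulated and 28.3 with solvent (log2 1.01). This was the 1 member call higher in the control line and 1 of the 2 in the shIKKE line. Both of its solvent signals are below the limit for keeping a probe set, so only the stimulated arrays kept it in. The sizes of its differences are therefore uncertain. In the dim tertile of all probe sets 29.5% were at least 2-fold higher with stimulation in shIKKE cells and 22.8% in the control line, so this probe set stands where such differences were common. With a pseudocount at the median signal the values were 0.93 and 0.59, both under 2-fold, as was the control line's under quantile normalization (log2 0.77) and both under median scaling (log2 0.95 and 0.80). Its average over the lines was 1.18 (SE 0.28, adjusted p = 0.139 by limma).

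The constitutive ICAMs were bright and differed little. ICAM2 read 5102 in stimulated and 6234 in solvent shIKKE cells by 213620_s_at (log2 -0.29), and 5607 in stimulated and 5876 in solvent control cells (log2 -0.07). Its second probe set had log2 differences of -0.16 in the shIKKE line and -0.35 in the control line. ICAM3, an LFA-1 ligand of resting lymphocytes, read 2620 in stimulated and 3209 in solvent shIKKE cells (log2 -0.29). It read 2526 in stimulated and 3713 in solvent control cells (log2 -0.55). All 6 of these differences were below 0, and all were within 2-fold.

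**Figure D2:**
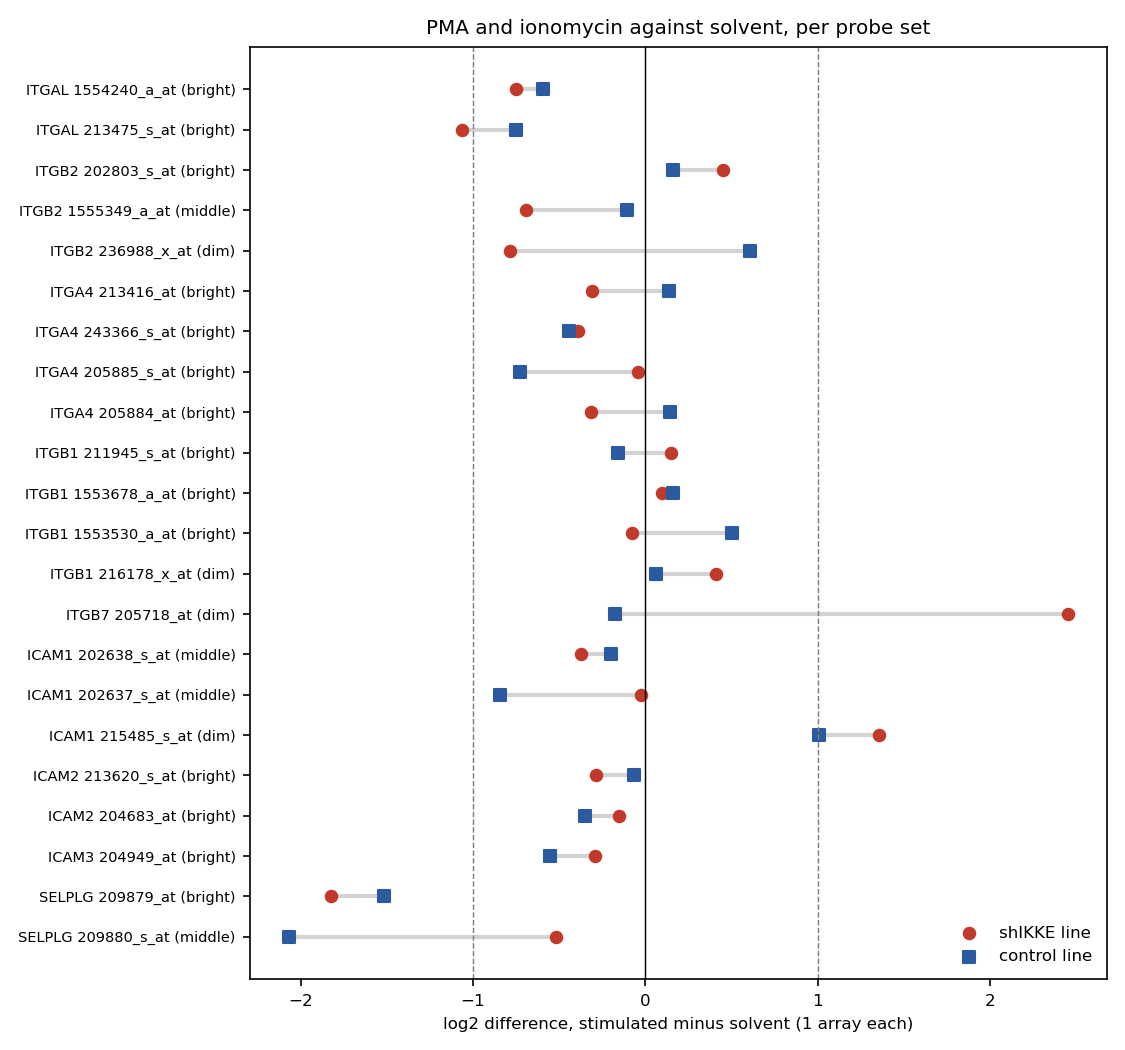
Log2 difference between stimulated and solvent arrays for each of the 22 kept probe sets, with circles for the shIKKE line and squares for the control line, 1 array on each side. Dashed lines mark 2-fold and the level tertile is given in brackets. Both SELPLG and both ITGAL probe sets lie left of 0 in both lines, while the 3 ICAM1 probe sets do not share a side.

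The subunits of VLA-4 were within 2-fold with stimulation in both lines, except that ITGA4 by 205885_s_at was at -1.01 in the control line after median scaling. ITGA4, the alpha subunit, had 4 bright probe sets. The brightest, 213416_at, read 4882 in stimulated and 6053 in solvent shIKKE cells (log2 -0.31), and 4730 in stimulated and 4300 in solvent control cells (log2 0.14). All 4 had differences below 0 in the shIKKE line, between -0.39 and -0.04, while in the control line they lay between -0.72 and 0.14 with 2 on each side of 0. With arrays scaled to 1 median, the 2 that were above 0 in the control line turned to -0.16 and -0.15. ITGB1, the beta subunit, read 4677 in stimulated and 4219 in solvent shIKKE cells by 211945_s_at (log2 0.15), and 6851 in stimulated and 7648 in solvent control cells (log2 -0.16). Its other bright probe sets differed by 0.10 and -0.08 in the shIKKE line and by 0.16 and 0.50 in the control line. Scaling the arrays to 1 median turned 211945_s_at to -0.33 in the shIKKE line and 1553678_a_at to -0.37 in the shIKKE line and -0.13 in the control line.

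ITGB7, the other partner of ITGA4, has a single dim probe set. It read 105 in stimulated and 7.66 in solvent shIKKE cells (log2 2.45). In control cells it read 73.4 stimulated and 84.6 with solvent (log2 -0.17). The low value on the solvent shIKKE array sets it apart from the other 3, which lay between 73.4 and 105. Its average over the lines was 1.14 (SE 0.67, adjusted p = 0.463 by limma).

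In the additive limma model, which averages stimulation over the lines, 0 of 22 member probe sets and 0 of all 32734 passed an adjusted p of 0.05. At an unadjusted p under 0.05 there were 4 of the 22, against 17.7% of all probe sets. It has 1 residual degree of freedom per probe set, given by how far the responses differ, which limma combines with a value shared by all probe sets. Neither holds a spread between replicates.

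The second question was how the shIKKE line differed from the control line. The bright probe sets of ITGB1 were lower in the shIKKE line, by 1.46-fold with stimulation and 1.81-fold with solvent for the brightest, and ITGAL was lower in both treatments too. SELPLG was higher in the shIKKE line by both probe sets. With stimulation 1 of the 22 member probe sets was at least 2-fold higher and 1 lower, where 6.05% and 3.00% of all kept probe sets were. With solvent 0 were higher and 1 was lower, where 5.70% and 6.61% of all were. The median log2 difference was 0.05 with stimulation, against 0.02 over all probe sets, and -0.09 with solvent, against -0.01. With stimulation 66.8% of all calls were higher in the shIKKE line, and 47.2% with arrays scaled to 1 median, which put the median of all probe sets at -0.18, or 52.7% with quantile normalization. None of the 14 bright member probe sets differed by 2-fold in either treatment, where 0.752% of all bright probe sets did with stimulation and 4.23% with solvent. After median scaling 1 of them, ITGB1 by 1553530_a_at, was past 2-fold with stimulation (log2 -1.12).

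ITGB1 read 4677 in stimulated shIKKE cells against 6851 in stimulated control cells by 211945_s_at (log2 -0.55), and 4219 against 7648 with solvent (log2 -0.86). By 1553678_a_at it read 1020 against 1638 with stimulation (log2 -0.68) and 952 against 1463 with solvent (log2 -0.61). By 1553530_a_at it read 522 against 997 with stimulation (log2 -0.91) and 553 against 699 with solvent (log2 -0.33). Both shIKKE arrays were below both control arrays for each of these 3 bright probe sets. The dim 216178_x_at, also kept, read 73.8 against 37.3 with stimulation (log2 0.78) and 52.0 against 35.2 with solvent (log2 0.42), in the other direction. Only its stimulated shIKKE signal reached the limit of 56.4, and its suffix marks possible cross-hybridisation. The other 3 ITGB1 probe sets stayed at signals of 29.0 or less. Averaged over the treatments, the bright ones were lower by 0.70, 0.64 and 0.62 on the log2 scale (SE 0.27, 0.26 and 0.30), with adjusted p between 0.792 and 0.802 by limma.

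ITGAL read 545 in stimulated shIKKE cells against 845 in stimulated control cells by 1554240_a_at (log2 -0.62), and 927 against 1281 with solvent (log2 -0.46). By 213475_s_at the log2 differences were -0.75 with stimulation and -0.45 with solvent. ITGB2, its partner, was near equal with stimulation by its brightest probe set, at 2062 in shIKKE and 2142 in control cells (log2 -0.05). With solvent it read 1502 in shIKKE and 1919 in control cells (log2 -0.35). The one call at least 2-fold lower with stimulation was the dim 236988_x_at of ITGB2, at 29.5 in shIKKE and 78.4 in control cells (log2 -1.09). Its shIKKE signal is below the limit of 56.4, and the call was lost with the pseudocount at the median signal (log2 -0.65). The lines' ITGAL averages were -0.54 and -0.60 (SE 0.27 each) with adjusted p of 0.802 and 0.797 by limma.

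SELPLG read 737 in stimulated shIKKE cells against 557 in stimulated control cells by 209879_at (log2 0.39), and 2651 against 1620 with solvent (log2 0.71). By 209880_s_at it read 153 against 29.98 with stimulation (log2 1.93) and 226 against 171 with solvent (log2 0.38). The shIKKE line was higher in all 4 of these pairs, and the 1 pair past 2-fold rests on a control signal below the limit of 56.4. Of the middle tertile of probe sets, with stimulation 1.87% were higher in the shIKKE line by 2-fold or more.

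ITGA4 and the ICAMs showed no common direction between the lines. The 4 ITGA4 probe sets lay between -0.07 and 0.54 on the log2 scale with stimulation, and between -0.14 and 0.57 with solvent. Median scaling turned the stimulated values of 213416_at and 205884_at to -0.16 and -0.09, and that of ICAM3 to -0.15. ICAM2 lay between -0.14 and 0.25 with stimulation and at 0.05 and 0.09 with solvent. ICAM3 read 2620 in stimulated shIKKE and 2526 in stimulated control cells (log2 0.05), and 3209 in solvent shIKKE and 3713 in solvent control cells (log2 -0.21). The 3 ICAM1 probe sets were higher in stimulated shIKKE than in stimulated control cells, by 0.18, 0.49 and 0.80 on the log2 scale, of which the first turned to -0.003 with arrays scaled to 1 median. With solvent they differed by 0.35, -0.32 and 0.46. ITGB7 was lower in solvent shIKKE cells (7.66 against 84.6, log2 -2.18) and within 2-fold with stimulation (105 against 73.4, log2 0.44). In the dim tertile with solvent 11.9% of all probe sets were lower in the shIKKE line by 2-fold or more.

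**Figure D3:**
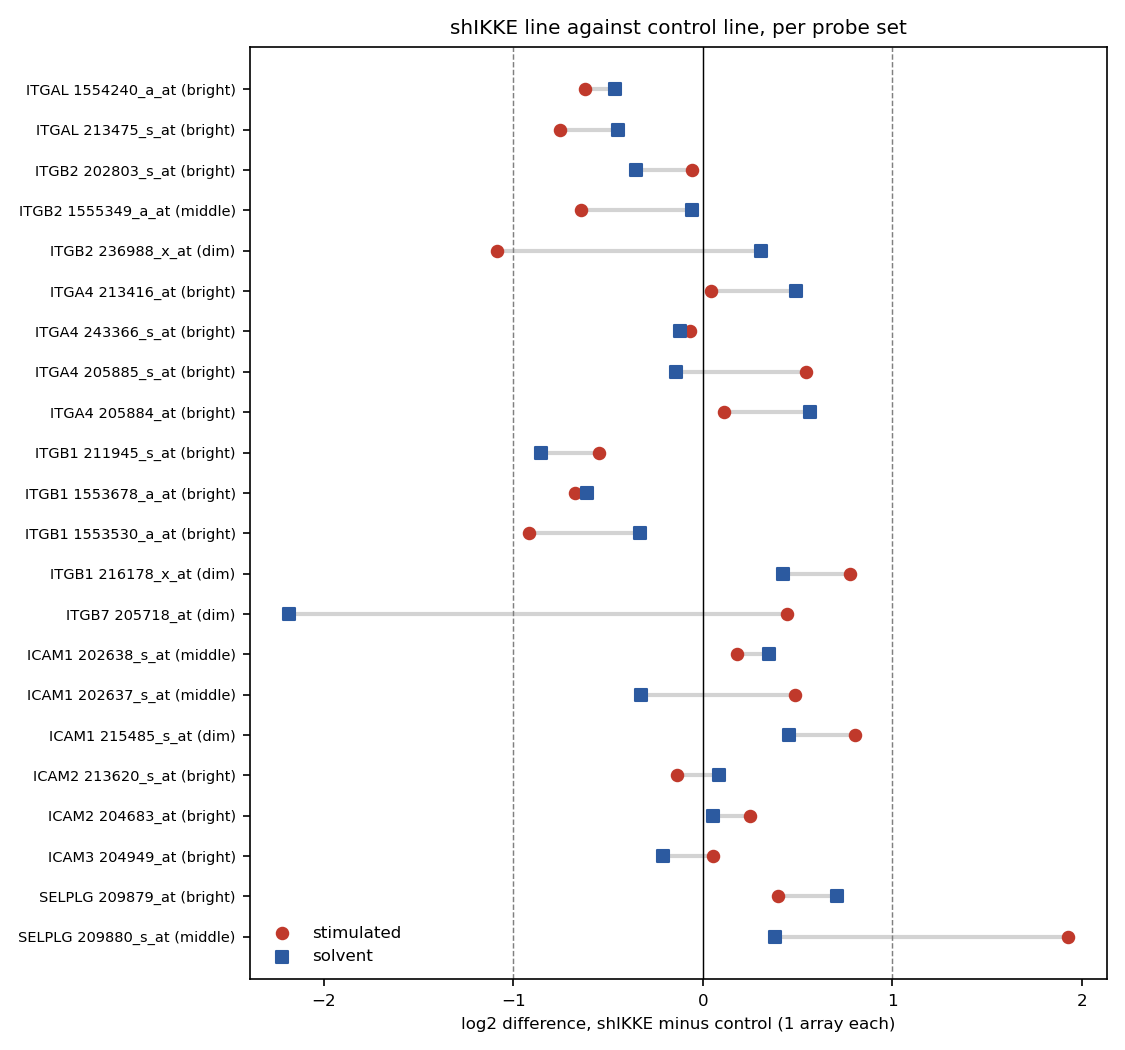
Log2 difference between the shIKKE and the control line for each of the 22 kept probe sets, with circles for stimulated and squares for solvent arrays, 1 array on each side. Dashed lines mark 2-fold. The 3 bright ITGB1 and both ITGAL probe sets lie left of 0 in both treatments and both SELPLG probe sets right of it, while the dim ITGB7, ITGB2 and ITGB1 probe sets scatter.

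In the additive model, 0 of the 22 member probe sets and 0 of 32734 passed for the average difference between the lines (limma, adjusted p of 0.05). At an unadjusted p under 0.05 there were 0 of the 22, against 6.35% of all. Stimulation in the control line and the comparison of the lines with solvent share the solvent control array, which is subtracted in both, so a value there enters both with the same sign.

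For the difference between the lines' responses, the value of the shIKKE line was above that of the control line by 2-fold or more for 2 of the 22 member probe sets and below it for 1, where 11.8% and 7.23% of all kept probe sets were. These were the dim ITGB7 (log2 2.63), SELPLG by 209880_s_at (log2 1.55) and ITGB2 by the dim 236988_x_at (log2 -1.39). With the pseudocount at the median signal the SELPLG and ITGB2 calls were lost (log2 0.96 and -0.84), and ITGB7 ranged from 1.45 to 3.81 over the alternatives. For the 14 bright member probe sets the responses differed by less than 2-fold, where 5.19% of all bright probe sets differed by at least that. The brighter SELPLG probe set had a difference of -0.31 between the responses, ITGAL had -0.16 and -0.31, and ICAM3 had 0.26. None of these has a test, since 1 array stands for each group. Of all calls 62.1% were higher, and 45.4% after median scaling or 51.7% after quantile normalization.

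**Figure D4:**
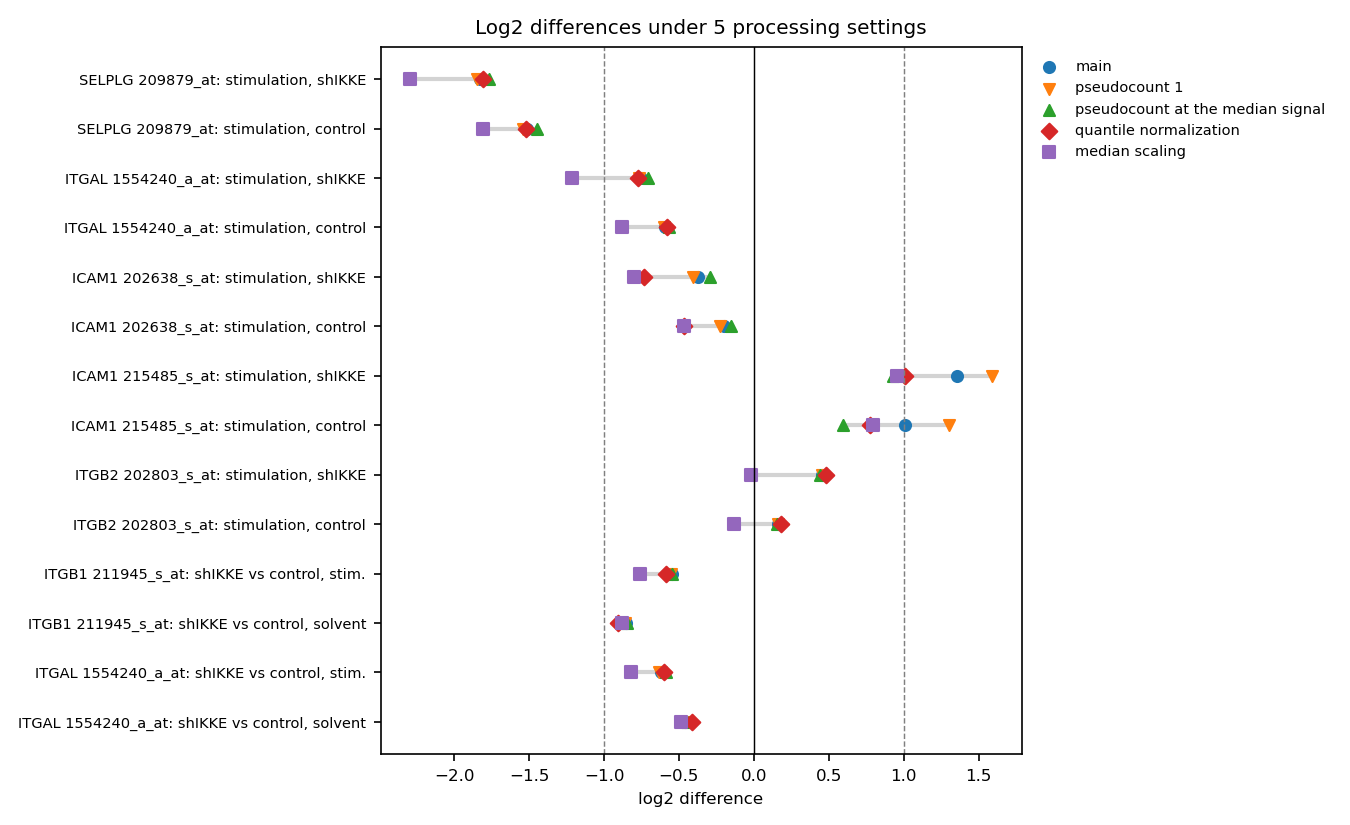
Log2 differences of 14 leading values under 5 processing settings, given by symbols, with grey bars from lowest to highest. Dashed lines mark 2-fold. SELPLG, ITGAL and ITGB1 stay on 1 side of 0 in all 5, while ITGB2 crosses 0 with arrays scaled to 1 median.

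Other genes of these adhesion systems were counted by gene, each by its brightest probe set, in 6 lists. Of 13 enzymes that decorate selectin ligands, 3 were at least 2-fold higher with stimulation in shIKKE cells and 0 lower, where 10.3% and 2.68% of 13717 genes were. In the control line 2 were higher and 1 lower, where 7.57% and 6.44% of all were. TPST2, a sulfotransferase that acts on tyrosines of PSGL-1, read 3737 in stimulated and 1506 in solvent shIKKE cells (log2 1.30), and 4458 and 2052 in stimulated and solvent control cells (log2 1.11). FUT7, the fucosyltransferase that completes sialyl Lewis x, read 105 in stimulated and 32.2 in solvent shIKKE cells (log2 1.37). It read 125 in stimulated and 8.08 in solvent control cells (log2 2.65). Both solvent signals of FUT7 are below the limit of 56.4, so the sizes of its differences are uncertain. TPST2, which is bright, was higher on the stimulated arrays of both lines. GCNT1, which builds the branched O-glycans that carry these groups, read 185 in stimulated and 153 in solvent shIKKE cells. In control cells it read 123 stimulated and 418 with solvent (log2 -1.66, and -1.23 by a second probe set).

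Past the limit were 16 of the 21 other integrin subunits listed. With stimulation in shIKKE cells 3 of them were at least 2-fold higher and 0 lower, where 10.3% and 2.68% of all genes were. In the control line 1 was higher and 1 lower, where 7.57% and 6.44% of all genes were. The shIKKE line's calls were ITGB4 (90.9 in stimulated and 5.16 in solvent cells, log2 2.45, and -0.10 by a second probe set), ITGA2B (65.5 and 11.7, log2 1.63) and ITGA10. The solvent signals of ITGB4 and ITGA2B are below the limit of 56.4. ITGA10, a collagen receptor subunit, read 282 in stimulated and 116 in solvent shIKKE cells (log2 1.19). ITGA5, the fibronectin receptor subunit, was within 2-fold, at 470 in stimulated and 231 in solvent shIKKE cells (log2 0.98). The control line's calls were ITGA7 (18.8 in stimulated and 89.3 in solvent cells, log2 -1.65) and ITGA9 (63.2 and 11.3, log2 1.61). Each reached the limit of 56.4 on 1 array alone, the higher of its pair. That array alone kept it in, so these calls are uncertain. Between the lines, ITGA6, a laminin receptor subunit, read 287 in stimulated shIKKE cells against 107 in stimulated control cells (log2 1.31).

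Of 24 other adhesion receptors listed, 16 were past the limit. With stimulation in the shIKKE line 1 of the 16 was at least 2-fold higher and 1 lower, where 10.3% and 2.68% of all genes were. In the control line 1 was higher and 4 lower, where 7.57% and 6.44% of all genes were. ICAM4, a further ICAM known from red cells, read 207 in stimulated and 558 in solvent shIKKE cells (log2 -1.37). It read 178 in stimulated and 549 in solvent control cells (log2 -1.55). CD44, the hyaluronan receptor, was dim and higher in both lines. It read 67.8 in stimulated and 22.0 in solvent shIKKE cells (log2 1.18), and 56.6 and 12.4 in stimulated and solvent control cells (log2 1.42). Both solvent signals of CD44 are below the limit of 56.4, so only the stimulated arrays kept it in. The sizes of its differences are therefore uncertain. CD48, a ligand in the CD2 family, read 1302 in stimulated and 1522 in solvent shIKKE cells, and 1685 and 4253 in stimulated and solvent control cells (log2 -1.33 in the control line, and -0.98 by a second probe set). CD2, an adhesion receptor of T cells, was lower in the shIKKE line, at 353 against 760 with stimulation (log2 -1.08) and 500 against 1976 with solvent (log2 -1.95).

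Of 33 integrin activators and linkers listed, 31 were past the limit. With stimulation in the shIKKE line 1 of the 31 was at least 2-fold higher and 0 lower, where 10.3% and 2.68% of all genes were. In the control line 1 was higher and 3 lower, where 7.57% and 6.44% of all genes were. RAP1A, the small GTPase that switches integrins on, read 10443 in stimulated and 4598 in solvent shIKKE cells (log2 1.18, and 0.33 by a second probe set). FYB1, an adaptor that joins the T cell receptor to integrins, read 2331 in stimulated and 5437 in solvent control cells (log2 -1.22), and its 4 other probe sets had differences between -2.09 and -1.05. Between the lines with stimulation, 2 were at least 2-fold higher in shIKKE cells and 0 lower, where 5.99% and 2.37% of genes were, and 2 higher and 1 lower with solvent, where 4.34% and 6.68% were. RAP1GAP2, which turns Rap1 off, read 488 against 51.4 with stimulation (log2 2.94) and 583 against 68.6 with solvent (log2 2.85). RASGRP2, an exchange factor that turns Rap1 on, read 1625 in solvent shIKKE cells against 577 in solvent control cells (log2 1.47). Its stimulated pair was 1232 against 809, within 2-fold. The 3 other RASGRP2 probe sets had differences of 1.48, 1.64 and 2.21 with solvent. The first and last of these rest on solvent control signals of 4.81 and 6.46, below the limit of 56.4. SKAP1, an adaptor that partners FYB1, read 132 in solvent shIKKE cells against 356 in solvent control cells (log2 -1.34). Its stimulated signals were near equal, at 188 in shIKKE and 196 in control cells.

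Of 11 extracellular integrin ligands listed, 6 were past the limit. With stimulation in shIKKE cells 2 of the 6 were at least 2-fold higher, where 10.3% of all genes were. They were FN1 (64.0 in stimulated and 18.8 in solvent cells, log2 1.25) and TNC (56.9 and 21.3, just past 2-fold). Both reached the limit of 56.4 on the stimulated shIKKE array alone. Only the array on which they were called higher kept them in, so these calls are uncertain. In the control line 0 differed by that much, where 14.0% of all genes did. Proteins of the ezrin family tie PSGL-1 and ICAMs to actin. The list of this family and its partners held EZR, RDX, MSN, NHERF1 and SYK. All 5 genes were within 2-fold by their brightest probe sets with stimulation in both lines and between the lines in both treatments. Of the 4 other probe sets of EZR, which encodes ezrin itself, 2 were past 2-fold with stimulation in the shIKKE line: a bright one at 757 in stimulated and 1786 in solvent cells (log2 -1.22) and a dim one at 19.1 and 69.6 (log2 -1.33). The dim one was also lower in stimulated shIKKE than in stimulated control cells (19.1 against 58.5, log2 -1.13), while the brightest EZR probe set had a log2 difference of 0.52 with stimulation in the shIKKE line. By brightest probe sets, the median log2 differences of the 5 genes with stimulation were -0.41 in the shIKKE line and -0.30 in the control line, against -0.01 and -0.07 over all genes.

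Over the 4 arrays, the genes whose centred log2 pattern lay nearest to that of the brightest ICAM1 probe set were NDUFB10, ARMCX6, PRKAG2-AS2, CBR3 and MRPL11, at Euclidean distances of 0.016 to 0.036 on the log2 scale. With 4 points and a span under 2-fold this is a description of the arrays only.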

How the data were processed

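Biotin-labelled RNA of 4 Jurkat samples, 1 per group, was measured on single-colour arrays. The deposited values are 1 intensity per probe set, the MAS5 signal, per the submitters' processing notes. Software version and scaling target: not given in the sources used here. All arrays shared a mean of 500.1 once the outer 2% at both ends were trimmed. Groups came from the sample titles. Gene symbols came from the platform annotation (41097 probe sets with 1 symbol, 1801 with several, 11777 with none), and 62 array controls were left out. Values are log2 of the signal plus 14.1, the 25th percentile of all signals, and the limit of 56.4 is their median.

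Average effects came from limma 3.58.1 under R 4.3.3 (lmFit, eBayes, two-sided, Benjamini-Hochberg over all kept probe sets), tested on simulated data. Other steps used Python 3.11.15, pandas 2.3.3 and numpy 2.4.6. Alternatives were the pseudocount, the filter, quantile and median scaling, gene medians over probe sets, a 1.5-fold limit and a variance trend. Members, lists and motifs were chosen with earlier results of these data known. All members were named; from each list up to 4 genes with the largest difference, and the 5 genes nearest ICAM1, could be named. The files carry no coordinates, and those printed come from RefSeq. Whether the samples came from separate cultures is not given in the labels.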

Additional observations from a re-analysis of the deposited data

Results flagged for a closer look

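Results in which the lines moved opposite ways with stimulation, by at least 2-fold of difference between the responses, were seen for 2 dim probe sets. For ITGB7 the response was 2.45 on the log2 scale in the shIKKE line and -0.17 in the control line, a difference of 2.63. For ITGB2 by 236988_x_at it was -0.79 in the shIKKE line and 0.61 in the control line, a difference of -1.39, which was -0.84, under 2-fold, with the pseudocount at the median signal. Neither difference was tested, because there is 1 array per group. In the dim tertile of all probe sets 38.3% differed by at least 2-fold between the responses.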

How the results depend on the processing

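No paired analysis was possible because each group has 1 array, and leaving out an array would leave a group empty. Of 550 log2 values of the 22 member probe sets under 5 alternatives, 15 changed sign and 19 crossed the 2-fold limit. None of those that changed sign was a value past 0.5 on the log2 scale. Leaving out the filter, 1 of the 5, does not alter the value of a kept probe set, so its 110 values could not move.

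Members called with stimulation in the control line were 3, and 5 after median scaling, 8 at 1.5-fold and 1 of 9 by gene medians. In the shIKKE line they were 4, and 6 after median scaling, 2 with the larger pseudocount (the median signal), 7 at 1.5-fold and 2 by gene medians. Between the lines with solvent there was 1, and 4 at 1.5-fold. Between the lines with stimulation there were 2, and 1 with the larger pseudocount, 9 at 1.5-fold and 1 by gene medians. The responses differed for 3, and for 1 with the larger pseudocount, 5 at 1.5-fold and 1 by gene medians. With the solvent shIKKE array as the baseline of the control line, chosen after seeing the data, 3 were called. In limma 0 members passed for stimulation, against 3 with a variance trend (both SELPLG probe sets and ITGAL by 213475_s_at, all lower) and 1 with the larger pseudocount, where 3043 and 2265 of all probe sets passed and not 0, and 61 with median scaling. For the line 0 members passed under each alternative, against 0 of all probe sets, 209 with a variance trend and 5 with the larger pseudocount. A variance trend takes the error from probe sets of like level, and gene medians count 9 genes in place of 22 probe sets. The cause of the moves was not tested.

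Over all probe sets, the calls with stimulation were 5920 in the shIKKE line and 6498 in the control line, those between the lines 2964 with stimulation and 4031 with solvent, and those of the difference between responses 6244. In the same order, they were 2719, 3280, 830, 1358 and 2926 with the pseudocount at the median signal, 10223, 10397, 6927, 7967 and 12869 without the filter, 1869, 1924, 1183, 1476 and 2288 by gene medians, and 11449, 13009, 7308, 10100 and 12794 at 1.5-fold. Dim probe sets rest on signals near background.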
